A study of Mus musculus with 9 samples.

Results

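The genes described here are the Wnt ligands, their Frizzled receptors and Lrp5/Lrp6 co-receptors, the R-spondins, the secreted Wnt inhibitors, the Axin scaffolds, the TCF/LEF nuclear factors and the acyltransferase Porcn. They were selected by a rule on gene symbols, and 45 of the 24624 genes in the deposited table matched. Wnt proteins are secreted lipid-bearing ligands that Porcn acylates before release. In the best known branch of the pathway they join a Frizzled receptor to Lrp5 or Lrp6, which disables the Axin complex that destroys beta-catenin, so that beta-catenin reaches TCF/LEF factors on DNA. In the developing cortex the pathway is known for roles in regional patterning, neurogenesis, axon growth and the ingrowth of blood vessels.

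RNA was sequenced from the cortices of newborn mice (postnatal day 0) of 3 genotypes, with 1 mouse and both hemispheres per library. There were 3 wild type libraries (Fezf2+/+; bc201, bc202 and bc203), 4 Fezf2-/- libraries (bc204, bc205, bc206 and bc207), and 2 libraries from Fezf2-/-; Fezf2-EnR mice (bc208 and bc209), called the transgenic libraries. FEZF2 is a zinc finger transcription factor of deep-layer cortical projection neurons. The null allele, carried in 2 copies by both mutant groups, holds a PLAP reporter at Fezf2. The Fezf2-EnR transgene is a bacterial artificial chromosome of 1 line. It places the FEZF2 DNA-binding domain, fused to the repressor domain of engrailed, under Fezf2 control. The pups came from crosses of Fezf2+/- with Fezf2+/-; Fezf2-EnR mice and belonged to 3 litters, of which only m1 held both wild type and Fezf2-/- libraries (2 of each).

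The values are read counts divided by a library size factor, called normalised counts. They sum to between 20097781 and 21058156 per library, and in the 7 libraries whose reads could be recovered the depth was 18716575 to 25127623 reads. Fezf2 itself stood at 979 to 1232 in wild type and at 193 to 242 in Fezf2-/-. It stood at 907 and 1001 in the transgenic libraries. These carry the same null background as Fezf2-/-, and in addition the transgene, which encodes the FEZF2 DNA-binding domain. Their values therefore do not show that endogenous Fezf2 was restored. Reads of the transgene and of the endogenous gene were not told apart. As a check of the tissue, cortical glutamatergic markers (7 genes) summed to 52311 to 53954 in wild type and 47263 to 59767 in Fezf2-/-. They summed to 47669 and 59629 in the transgenic libraries. Of the 7, 1 was higher and 2 lower in Fezf2-/- without overlap, against 6.53% and 6.46% of all genes tested. Emx1 stood at 512 to 579, 376 to 428, and 460 and 445 in these groups. Slc17a7 stood at 2115 to 2385, 2631 to 3945, and 2834 and 1271. Tbr1 stood at 5660 to 7888 across the 9 libraries. Xist, the transcript that marks the inactive X chromosome, stood at 10771 in wild type bc201 and at 12203 and 7895 in both transgenic libraries, and at 58.9 or less elsewhere. The 4 Y-linked genes examined were at 0 in both transgenic libraries and expressed in all 4 Fezf2-/- libraries, so sex and transgene cannot be told apart between those groups. Striatal markers (8 genes) summed to 3466 in Fezf2-/- bc204 and 2725 in transgenic bc208, against 1050 to 1809 in the other 7 libraries.

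Of the 45 genes, 36 averaged 10 or more normalised counts over all 9 libraries and entered the test, which covered 16197 genes. The 9 others were Wnt2, Wnt6, Wnt9b, Wnt10a, Wnt11, Wnt16, Rspo1, Rspo4 and Dkk1. Their highest mean was 5.37, and their highest single value was 15.1, reached by Wnt2 in bc204. A gene was called when its Benjamini-Hochberg adjusted p from limma, over all 16197 genes, was under 0.05.

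Within the wild type cortex a few members carried most of each class. To compare genes, values were divided by exon length in kb. Wnt7b had the highest ligand level, at 895 ± 115 normalised counts per kb (SD, n = 3), followed by Wnt7a at 114 ± 8.2. Wnt5b (26.6 ± 2.73), Wnt4 (25.4 ± 3.84), Wnt5a (21.9 ± 0.239) and Wnt3 (19.7 ± 2.60) came next, and these neighbours lay within their combined spread. Wnt9a (13.9) and Wnt2b (4.50) ended the tested ligands. Among receptors Fzd3 led with 371 ± 40.0 per kb, ahead of Fzd9 (123 ± 24.9) and Fzd1 (84.4 ± 10.4). Fzd6 (46.7), Fzd2 (43.8), Fzd8 (36.4), Fzd7 (31.3) and Fzd4 (25.4) formed a middle range, and Fzd10 (5.25 ± 0.742) and Fzd5 (5.01 ± 0.848) were the lowest and did not differ beyond their spread. Lrp6 (111) stood above Lrp5 (32.3). Dkk3 (529 ± 41.6) and Sfrp1 (430 ± 102) were the most abundant inhibitors per kb, ahead of Sfrp2 (101) and of Sfrp5, Dkk2, Sfrp4 and Wif1 at 3.56 to 10.4. Axin1 (271) exceeded Axin2 (72.8), and the nuclear factors ran from Tcf7 (42.2) and Tcf7l1 (20.4) to Lef1 (7.87) and Tcf7l2 (5.41). Porcn stood at 113 and the R-spondins Rspo2 and Rspo3 at 52.3 and 47.5 per kb.

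**Figure D1:**
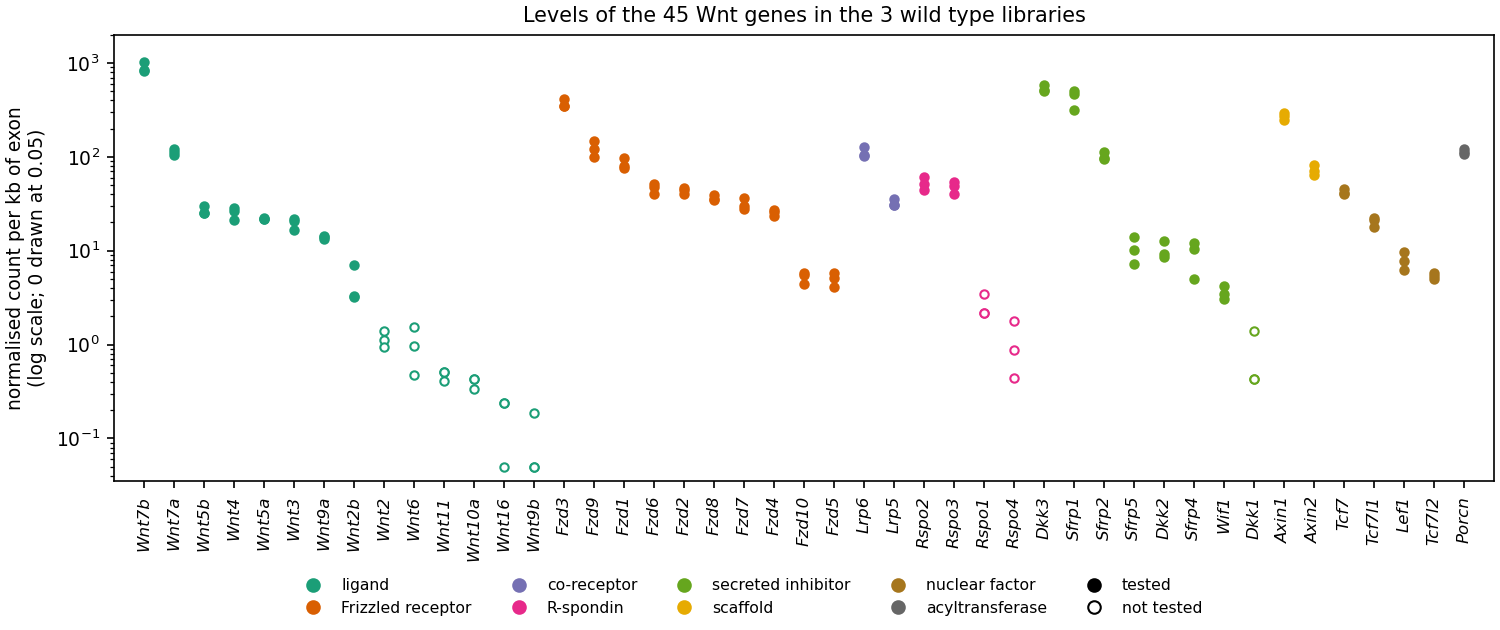
Normalised counts per kb of exon (log axis, 0 drawn at 0.05) of the 45 genes in the 3 wild type libraries, 1 point per library, coloured by role. Filled points are the 36 tested genes and open points the 9 others. Wnt7b is the highest of all at 895 per kb on average, and Wnt9b is at 0 in 2 of the 3 libraries.

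The first comparison, of Fezf2-/- with wild type, asks what the loss of FEZF2 does to these genes. Fzd10 rose 2.46-fold, and Wnt7b and Dkk3 fell by 31.9% and 38.9%. These 3 of 36 tested members (8.33%) were called, against 0.858% of all genes tested (139 of 16197). Wnt7b was already named by the study from these libraries when the members were chosen. Its part in this share and those below is therefore no separate finding. The 1 call above wild type compares with 0.512% of all genes, and the 2 below with 0.346%. At an unadjusted p under 0.05 the count was 10 of 36 (27.8%, against 10.8% of all genes), with 8 higher (against 6.61% of all genes) and 2 lower (against 4.21%). In 26 of 36 members the fold change was above 0, against 49.9% of all genes, and the median log2 fold change was 0.09 over the members and 0.00 over all genes.

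Wnt7b, a ligand mostly of the beta-catenin branch that the study names as a corticothalamic gene (GRCm38 chr15:85535437-85582473, minus strand), stood at 4078, 5035 and 4044 in the wild type libraries. It stood at 2704, 2926, 3277 and 3010 in Fezf2-/-, and at 3507 and 4116 in the transgenic libraries. All 4 Fezf2-/- values lay below every other library. Transgenic bc208 fell between the other groups and bc209 inside the wild type range. The log2 fold change of Fezf2-/- against wild type was -0.55 (SE 0.10, limma adjusted p = 0.0248). The study named Wnt7b from these same libraries, so that its direction here is not independent evidence. By in situ hybridization the study also reported less Wnt7b in Fezf2-/- cortex, and its rescue with the transgene. The call rested on single libraries: without bc201, bc202, bc204, bc205 or bc207 the adjusted p was 0.0624, 0.113, 0.0674, 0.0797 and 0.0615, with log2 fold changes of -0.45 to -0.60. Within litter m1 it was called (log2 -0.55, adjusted p = 0.0359), and with litter as a block (0.0615) or edgeR on recovered reads (0.0501) it was not. With DESeq2 on the same reads it was called (1.97e-05). Its exons overlap those of AU022754 on the other strand, which held 6.54 to 21.1 normalised counts. In bulk tissue, fewer cells that express a gene and less RNA per cell cannot be told apart.

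Wnt7b made up most of the summed ligand level. The 14 ligands summed per kb to 1043, 1257 and 1072 in wild type, to 832, 836, 893 and 876 in Fezf2-/-, and to 1005 and 1092 in the transgenic libraries. The Fezf2-/- sums were the lowest of the 9. Wnt7b made up 77.0% to 81.8% of the sum in wild type, 66.3% to 74.9% in Fezf2-/-, and 71.3% and 77.0% in the transgenic libraries. Wnt7a, its closest relative and with it a known signal to brain endothelium, stood at 334, 361 and 386 in wild type and at 463, 351, 342 and 423 in Fezf2-/-. These groups overlapped (log2 fold change 0.12, SE 0.12, adjusted p = 0.756).

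**Figure D2:**
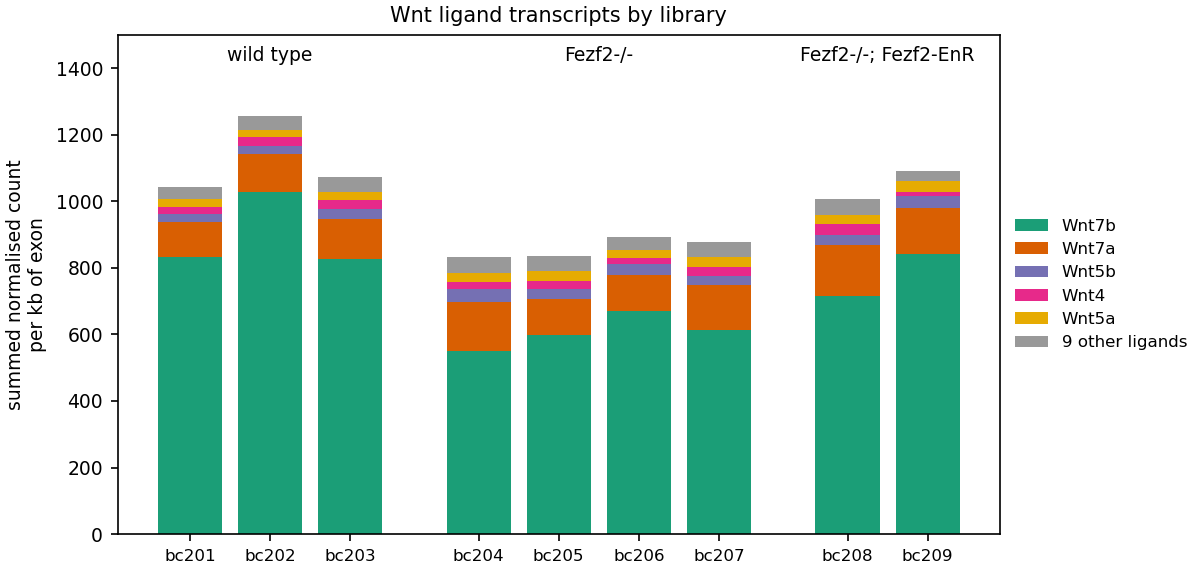
Summed normalised counts per kb of exon of the 14 Wnt ligands in each library, stacked by ligand. The 4 Fezf2-/- bars end between 832 and 893, and the wild type and transgenic bars between 1005 and 1257, with Wnt7b as the largest block in every bar.

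The other ligands were not called. Wnt5a, best known for signalling without beta-catenin and for axon guidance, stood at 172, 169 and 173 in wild type, at 201, 254, 186 and 220 in Fezf2-/-, and at 198 and 247 in the transgenic libraries. All 6 mutant values lay above the wild type range (Fezf2-/- against wild type, log2 fold change 0.32, SE 0.12, adjusted p = 0.386). Wnt5b, its relative, stood at 66.7, 66.3 and 79.0 in wild type, 104, 74.1, 92.8 and 74.8 in Fezf2-/-, and 80.6 and 94.0 in the transgenic libraries. Wnt4, a ligand known from kidney and gonad development, ranged from 88.7 to 120 in wild type, 69.9 to 115 in Fezf2-/-, and reached both 141 and 54.6 in the transgenic libraries. Wnt2b, Wnt3 and Wnt9a overlapped between wild type and Fezf2-/-, with log2 fold changes of -0.20 to 0.08.

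Of the Frizzled receptors, 8 of 10 had fold changes above 0 in Fezf2-/-, with a median log2 of 0.20, but Fzd10 was the only call. Fzd10 (GRCm38 chr5:128600844-128604093, plus strand), of the receptor subgroup that also holds Fzd4 and Fzd9, stood at 14.4, 17.9 and 19.0 in wild type. It stood at 39.2, 44.7, 48.0 and 41.5 in Fezf2-/-, and at 17.9 and 18.6 in the transgenic libraries. All 4 Fezf2-/- values lay above those of the 5 other libraries, where wild type and transgenic values overlapped. The log2 fold change was 1.30 (SE 0.18, adjusted p = 0.00605), and Fzd10 was still called when any 1 of the 9 libraries was left out (adjusted p 0.0426 or less) and within litter m1 (log2 1.47, adjusted p = 0.0302). On recovered reads the adjusted p was 0.0224 with edgeR and 0.0535 with DESeq2.

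**Figure D3:**
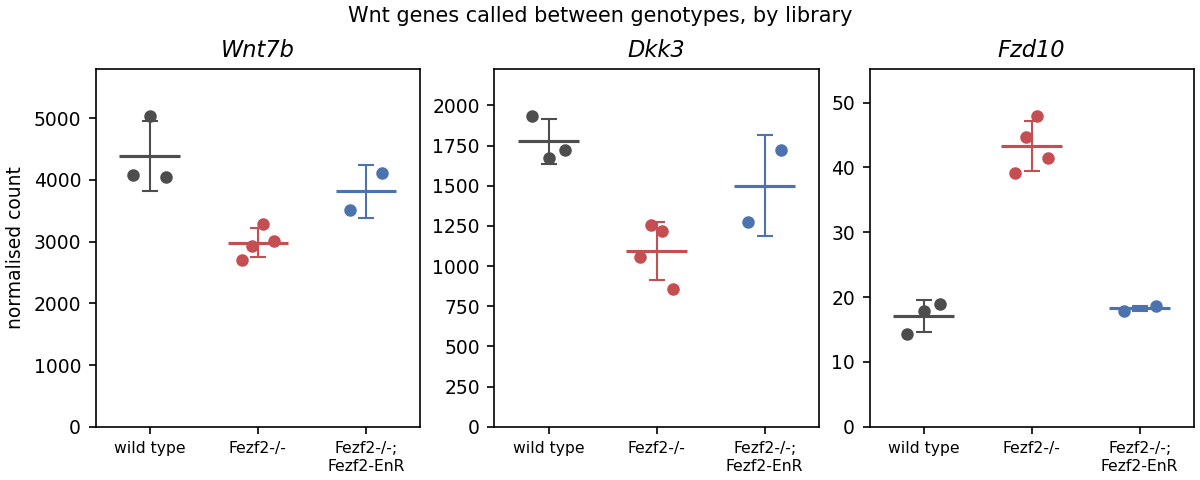
Normalised counts of Wnt7b, Dkk3 and Fzd10 in each library (points) with the group mean and SD (bars), each axis starting at 0. Wnt7b and Dkk3 are lowest in Fezf2-/-, and Fzd10 is between 39.2 and 48.0 in Fezf2-/- against 14.4 to 19.0 in the other 5 libraries.

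Fzd8 had the next smallest p. It stood at 211, 208 and 233 in wild type, at 266, 296, 268 and 269 in Fezf2-/-, and at 285 and 264 in the transgenic libraries. Every mutant library lay above every wild type one, at a log2 fold change of 0.34 (SE 0.09, adjusted p = 0.154). Fzd2 stood at 146, 163 and 172 in wild type and at 283, 198, 173 and 213 in Fezf2-/-, only just without overlap (log2 0.41, SE 0.16, adjusted p = 0.369). Leaving out 1 library gave Fzd2 log2 fold changes of 0.28 to 0.51. Fzd1 stood at 320, 339 and 404 in wild type and at 666, 465, 343 and 578 in Fezf2-/-, where bc206 fell inside the wild type range (log2 0.50, SE 0.19, adjusted p = 0.366). For both genes the highest Fezf2-/- value was that of bc204, a library high in striatal markers. What part striatal tissue had in it was not tested. Across the members, 8 of 36 (22.2%) had wild type and Fezf2-/- libraries that did not overlap, against 13.0% of all genes. In 6 the Fezf2-/- libraries lay higher (Fzd2, Fzd8, Fzd10, Tcf7l1, Wif1 and Wnt5a, against 6.53% of all genes) and in 2 lower (Dkk3 and Wnt7b, against 6.46%).

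The most abundant receptors, Fzd3 and Fzd9, were not called. Fzd3, needed for the growth of major forebrain axon tracts, stood at 4471, 4442 and 5343 in wild type and at 4805, 4105, 4394 and 5686 in Fezf2-/- (log2 fold change -0.01, SE 0.12). Fzd9 stood at 226, 279 and 340 in wild type and at 277, 255, 273 and 285 in Fezf2-/- (log2 -0.03, SE 0.14). Fzd6, a planar polarity receptor, stood at 232, 250 and 192 in wild type and at 195, 283, 280 and 213 in Fezf2-/-. The groups overlapped for all 3 genes. Fzd4, the receptor for Norrin in vessels, and Fzd5 and Fzd7 also overlapped, with log2 fold changes of 0.07 to 0.31. The 10 receptors summed per kb to 713 to 855 in wild type, 786 to 935 in Fezf2-/-, and 902 and 998 in the transgenic libraries.

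Among the secreted inhibitors, Dkk3 fell and none was called higher. Dkk3, a divergent member of the Dickkopf family (GRCm38 chr7:112116017-112159057, minus strand), stood at 1935, 1671 and 1723 in wild type. It stood at 1056, 1254, 1216 and 855 in Fezf2-/-, and at 1277 and 1723 in the transgenic libraries. The Fezf2-/- values lay below every other library, transgenic bc208 just above them and bc209 inside the wild type range. The log2 fold change was -0.71 (SE 0.14, adjusted p = 0.0466). When any 1 of the 7 wild type and Fezf2-/- libraries was left out the call was lost, at adjusted p from 0.0555 (without bc205) to 0.216 (without bc201) and log2 fold changes of -0.60 to -0.78. Within litter m1 (log2 -0.54, adjusted p = 0.0132) and with litter as a block (log2 -0.52, adjusted p = 0.0417) it was called. On recovered reads it was called with DESeq2 (2.47e-05) and not with edgeR (0.0717). Dkk3 made up 44.6% to 53.8% of the summed inhibitor level per kb in wild type and 31.2% to 35.7% in Fezf2-/-. Sfrp1 made up 33.0% to 41.9% and 44.3% to 48.8%. Dkk3 was counted as an inhibitor by its symbol alone, and inhibition of Wnt signalling was not measured.

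The other inhibitors, which bind Wnt proteins directly (Sfrp genes, Wif1) or the Lrp co-receptors (Dkk2), had fold changes above 0 without being called. Sfrp2 stood at 202, 245 and 208 in wild type and at 303, 270, 244 and 310 in Fezf2-/- (log2 0.37, SE 0.11, adjusted p = 0.240). Dkk2 stood at 33.8, 31.6 and 47.4 in wild type and at 67.3, 44.7, 82.4 and 60.6 in Fezf2-/- (log2 0.74, SE 0.26, adjusted p = 0.323). Both pairs of groups overlapped, each through 1 Fezf2-/- library, and Dkk2 stood at 52.8 and 29.5 in the transgenic libraries. Sfrp1, known in cortical progenitors, ranged from 1376 to 2219 in wild type and from 1607 to 2262 in Fezf2-/-. Wif1, at 10.1, 7.36 and 8.43 in wild type, stood at 12.1, 10.9, 13.6 and 24.9 in Fezf2-/- (adjusted p = 0.567), and Sfrp5 and Sfrp4 overlapped.

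The co-receptors and scaffolds were not called in Fezf2-/-. The co-receptor Lrp6 stood at 1384, 1425 and 1735 in wild type and at 1699, 1643, 1780 and 1689 in Fezf2-/- (log2 0.18, SE 0.09, adjusted p = 0.526), and Lrp5 at 301, 299 and 343 against 338, 317, 335 and 308. Axin1, a core scaffold of the destruction complex, stood at 1109, 1052 and 953 in wild type and at 995, 1036, 927 and 905 in Fezf2-/-. Axin2, its relative and a common transcriptional target of beta-catenin, stood at 353, 393 and 456 in wild type and at 463, 435, 474 and 517 in Fezf2-/-, with overlap through bc205 (log2 0.24, SE 0.10, adjusted p = 0.403). Both co-receptors and both scaffolds thus overlapped between the groups.

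The nuclear factors were not called either. Tcf7 stood at 106, 107 and 119 in wild type and at 78.3, 109, 93.8 and 92.2 in Fezf2-/- (log2 -0.25, SE 0.13). Tcf7l1, often a repressor of Wnt targets, stood at 83.6, 87.3 and 69.6 in wild type and at 108, 101, 92.8 and 88.0 in Fezf2-/-, just without overlap (log2 0.28, SE 0.17, adjusted p = 0.614). Lef1 ranged from 54.8 to 84.2 in wild type and 62.6 to 78.5 in Fezf2-/-, and Tcf7l2, which is abundant in thalamus, from 44.2 to 50.7 and 46.2 to 62.3. In the transgenic libraries Tcf7 stood at 107 and 98.3, Tcf7l1 at 107 and 66.7, Lef1 at 92.6 and 64.5, and Tcf7l2 at 69.7 and 44.8. For each of these 4 factors bc208 was the higher of the 2. Porcn stood at 319, 364 and 336 in wild type, at 403, 377, 349 and 345 in Fezf2-/-, and at 351 and 273 in the transgenic libraries.

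The R-spondins keep Frizzled receptors at the cell surface by removing the ligases Znrf3 and Rnf43. Rspo2 stood at 262, 225 and 315 in wild type, at 252, 153, 266 and 154 in Fezf2-/-, and at 205 and 354 in the transgenic libraries. Rspo3 stood at 150, 124 and 167 in wild type, at 137, 120, 86.5 and 161 in Fezf2-/-, and at 205 and 192 in the transgenic libraries. Neither was called in Fezf2-/- against wild type (adjusted p = 0.609 and 0.709), and for Rspo3 both transgenic values lay above all 7 others. Rspo1 and Rspo4 stayed at 6.76 or less in every library.

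Marker sums of several cell types also stood apart in this comparison. The corticothalamic markers (6 genes, Tle4 among them) summed to 15151 to 15922 in wild type and 10746 to 12564 in Fezf2-/-. They summed to 15887 and 19845 in the transgenic libraries. Of the 6, 4 were lower in Fezf2-/- without overlap, against 6.46% of all genes tested. The study had already reported less TLE4, ZFPM2 and FOXP2 in layer 6 of Fezf2-/- cortex. Their part in this count was therefore known beforehand and is no separate finding. The interneuron markers (8 genes) summed to 8333 to 8805, 11023 to 11510, and 9434 and 8575. Of the 8, 7 were higher in Fezf2-/- without overlap, against 6.53% of all genes tested. The thalamic markers (7 genes, with Gbx2 at 9.04 or less) summed to 1906 to 2015, 2314 to 3033, and 2327 and 2175. Oligodendrocyte precursor markers (5 genes) summed to 4849 to 5148 in wild type, 5512 to 5780 in Fezf2-/-, and 5391 and 5411 in the transgenic libraries. Radial glial and astrocytic markers (9 genes) summed to 16909 to 17296, 17683 to 20027, and 21373 and 17935. Higher in Fezf2-/- without overlap were 2 of 7 thalamic, 2 of 5 precursor and 2 of 9 glial markers, against 6.53% of all genes. What part these cells had in Wnt7b, Dkk3 and Fzd10 was not tested. Choroid plexus markers (8 genes, 0 of them without overlap) summed to 50 to 53 in wild type, 58 to 104 in Fezf2-/-, and 108 and 32 in the transgenic libraries. Sostdc1 was the highest of them, at 21.9 to 77.7, and the defining marker Ttr was at 3.27 or less in every library. Markers of Cajal-Retzius cells and the cortical hem (8 genes) summed to 5020 to 8067, 6380 to 7632, and 6287 and 7270, with the hem marker Lmx1a at 2.10 or less.

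**Figure D4:**
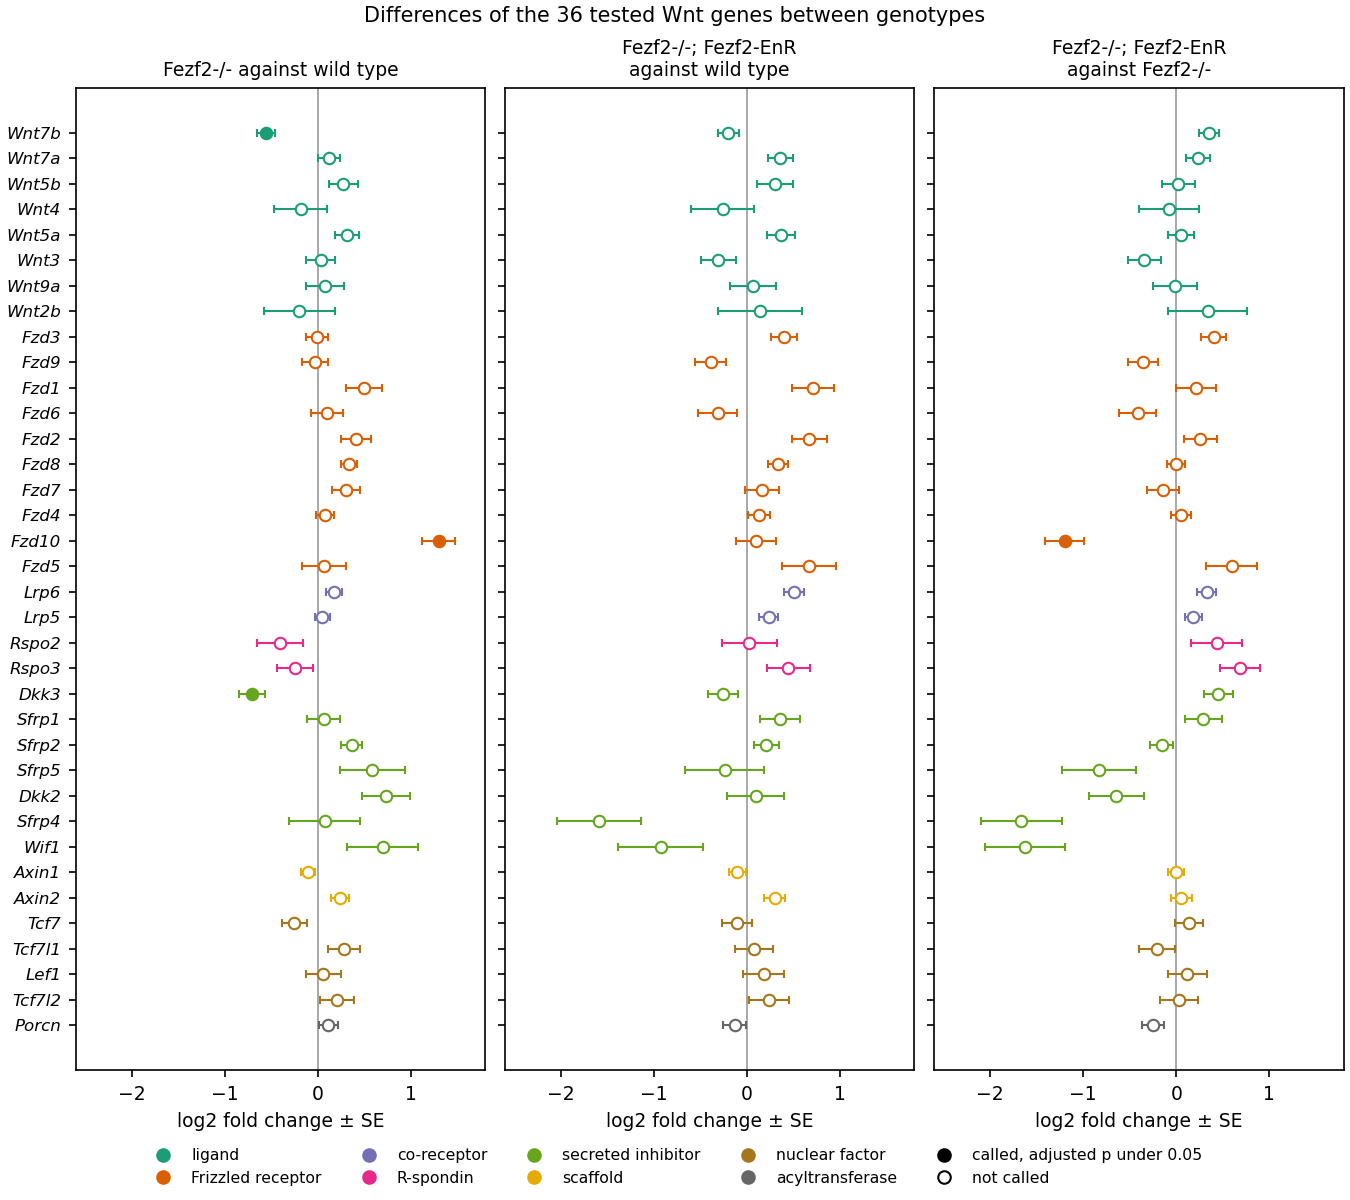
Log2 fold changes on the log2(value + 1) scale with SE of the 36 tested genes in the 3 comparisons, grouped by role and ordered by wild type level per kb. Filled symbols are called. They are Wnt7b, Fzd10 and Dkk3 in Fezf2-/- against wild type, none in the transgenic group against wild type, and Fzd10 in the transgenic group against Fezf2-/-.

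The second comparison, of the transgenic group with wild type, asks where these genes stood when a FEZF2 repressor fusion was present on the null background. None of the 36 members was called by limma, against 0.117% of all genes (19 of 16197; 0.0926% higher and 0.0247% lower). At an unadjusted p under 0.05 there were 12 (33.3%, against 19.3% of all genes), 10 of them higher (against 10.5%) and 2 lower (against 8.72%). Called members numbered 0 with edgeR. On recovered reads, with 1 transgenic library, DESeq2 called 3 (8.33%), namely Fzd2, Fzd3 and Lrp6, against 966 of 16197 genes (5.96%). Libraries did not overlap in 16 of 36 members (44.4%), against 34.6% of all genes, with 13 higher (against 17.3%) and 3 lower (against 17.3%). The fold change was above 0 in 24 of 36 (66.7%), against 49.0% of all genes. The median log2 fold change was 0.13 over the members and -0.005 over all genes.

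The co-receptor Lrp6 had the smallest adjusted p of the class, at 1952 and 2333 in the transgenic libraries against 1384 to 1735 in wild type (log2 0.50, SE 0.11, adjusted p = 0.0963). It passed the threshold without wild type bc203 (0.0279) and with litter as a block (0.0465). Leaving out 1 library gave log2 fold changes of 0.37 to 0.63. Without bc208 or bc209, the other was the only transgenic library. Lrp5 stood at 367 and 369, above the wild type range (log2 0.23, SE 0.10, adjusted p = 0.237). Both co-receptors thus lay above wild type in both transgenic libraries, without being called.

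Several receptors were also above the wild type range in both transgenic libraries. Fzd1 stood at 580 and 571 (log2 0.71, SE 0.23, adjusted p = 0.159) and Fzd2 at 232 and 281 (log2 0.67, SE 0.19, adjusted p = 0.137). Fzd3 stood at 5596 and 6936 (log2 0.40, adjusted p = 0.179), and Fzd5 at 47.8 and 63.4 against 28.4 to 40.1 in wild type (log2 0.67, adjusted p = 0.242). Fzd9 went the other way, at 241 and 187, overlapping wild type through bc208 (log2 -0.39, adjusted p = 0.240). Fzd6 stood at 150 and 214, in overlap with wild type. Markers of proliferating cells (6 genes) summed to 2165 and 2874 in the transgenic libraries, 1353 to 1982 in wild type and 1569 to 2254 in Fezf2-/-, and their part in the receptor values was not tested.

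Of the ligands, Wnt7a stood at 481 and 443 in the transgenic libraries, above its wild type range (log2 0.36, SE 0.14, adjusted p = 0.199). Wnt3, a ligand of the beta-catenin branch, stood at 47.8 and 49.2, the lowest of the 9 libraries (log2 -0.31, SE 0.19, adjusted p = 0.387). Wnt7b, at 3507 and 4116, gave a log2 fold change of -0.20 (SE 0.11, adjusted p = 0.361), and Dkk3 gave -0.26 (SE 0.17, adjusted p = 0.422). Fzd10 gave 0.10 (SE 0.22, adjusted p = 0.833). Axin2 stood at 488 and 492 (log2 0.30, SE 0.12, adjusted p = 0.208) and Axin1 at 958 and 970, and Sfrp1 at 2033 and 2732 and Sfrp2 at 255 and 248.

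Sfrp4, a frizzled-related inhibitor, had the largest log2 fold change of the 36 against wild type. It stood at 50.7, 43.1 and 21.1 in wild type, at 43.2, 38.1, 46.9 and 26.6 in Fezf2-/-, and at 18.9 and 6.56 in the transgenic libraries. The transgenic values were the lowest of the 9 (log2 -1.59, SE 0.46, adjusted p = 0.143). The difference depended on bc209: the log2 fold change was -0.89 without it. With bc209 as the only transgenic library it was -2.29.

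**Figure D5:**
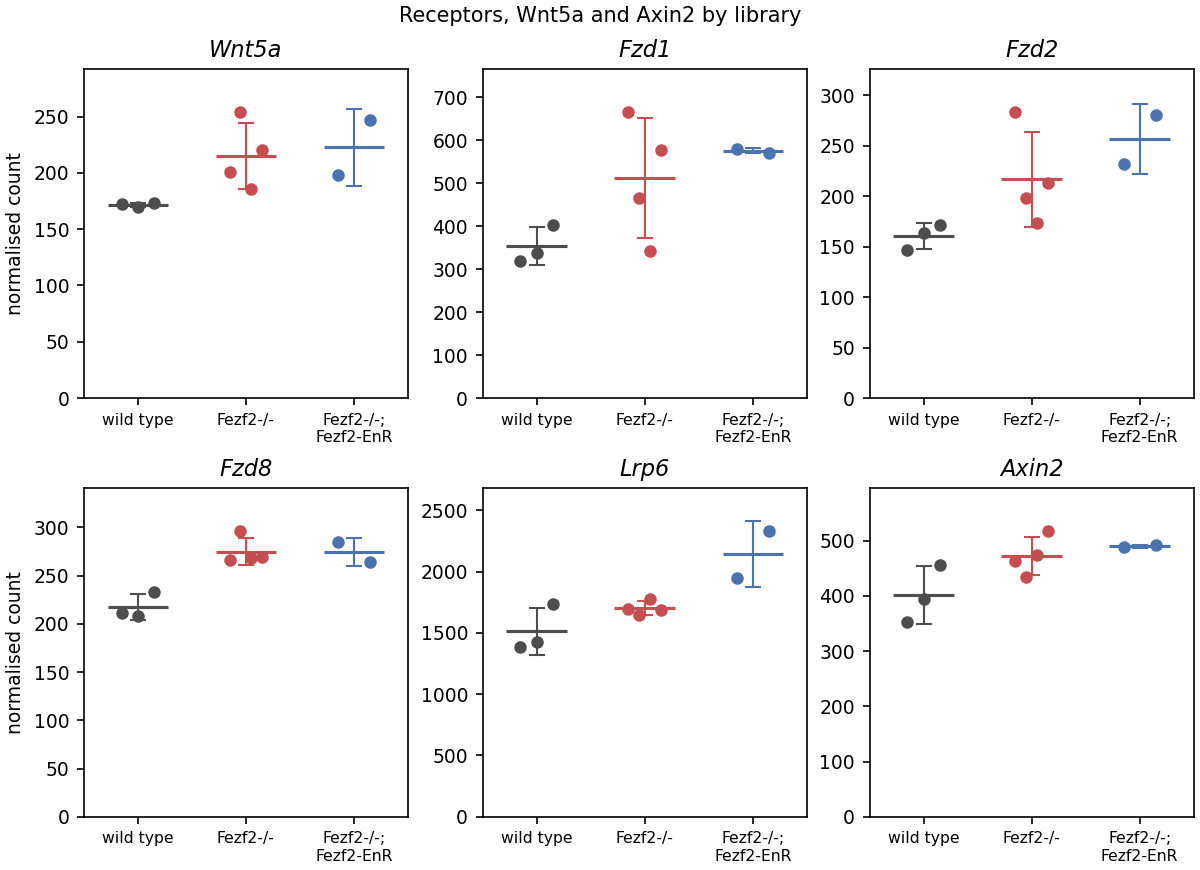
Normalised counts of Wnt5a, Fzd1, Fzd2, Fzd8, Lrp6 and Axin2 in each library (points) with the group mean and SD (bars), each axis starting at 0. For Fzd2, Fzd8 and Wnt5a every library of both mutant groups lies above the wild type range, and Lrp6 is highest in the 2 transgenic libraries, at 1952 and 2333.

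The third comparison, of the transgenic group with Fezf2-/-, asks what the fusion protein changed on the same null background. It shares its libraries with the comparisons above. Fzd10 fell by 1.2 on the log2 scale (SE 0.21, adjusted p = 0.0298), from 39.2 to 48.0 in Fezf2-/- to 17.9 and 18.6. It was the 1 member called of 36 (2.78%), against 0.766% of all genes (124 of 16197; 0.432% lower). The call was lost without bc202, bc204, bc205, bc206, bc207 or bc209 (adjusted p from 0.0526 to 0.229), with litter as a block (0.0651) and with edgeR (0.0601). At an unadjusted p under 0.05 there were 9 of 36 (25.0%, against 16.9% of all genes), 5 of them higher (against 7.87%) and 4 lower (against 9.06%). Libraries did not overlap in 10 of 36, against 24.6% of all genes, with 5 higher (against 12%) and 5 lower (against 12.6%). The fold change was above 0 in 20 of 36, against 50.4% of all genes.

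Both genes that had fallen in Fezf2-/- lay higher in the transgenic libraries without being called. Wnt7b gave a log2 fold change of 0.35 (SE 0.11, adjusted p = 0.167) and Dkk3 one of 0.45 (SE 0.16, adjusted p = 0.202). In each case both transgenic values lay above all 4 Fezf2-/- values. Lrp6 (log2 0.33, adjusted p = 0.172), Rspo3 (0.69, adjusted p = 0.179) and Fzd3 (0.40, adjusted p = 0.189) also had fold changes above 0. Lrp6 and Rspo3 did not overlap between the groups, and Fzd3 did, through bc207.

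Among inhibitors the fold changes of Sfrp4 (-1.66, adjusted p = 0.122) and Wif1 (-1.62, adjusted p = 0.131) were below 0. Wif1 stood at 6.97 and 2.19 in the transgenic libraries against 10.9 to 24.9 in Fezf2-/-. With bc209 as the only transgenic library, the log2 fold changes of Sfrp4 and Wif1 were -2.36 and -2.29. With bc208 as the only one they shrank to -0.96. Sfrp4 and Wif1 hold few reads in bc209, where 1 read was worth 1.09 normalised counts. Fzd9 (-0.36, adjusted p = 0.284) also lay below all Fezf2-/- values in both transgenic libraries, and Axin2 and Fzd8 were close between the groups, at log2 fold changes of 0.06 and 0.00. Striatal markers were high in bc204 and bc208. With both left out, bc209 was the only transgenic library, and the spread of that group could not be measured. Fzd10 alone was then called in Fezf2-/- against wild type, with 129 calls over all genes.

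The rest of the pathway was followed through 77 further genes, of which 72 were tested. They cover secretion and extracellular proteins, other receptors, cytoplasmic components, nuclear co-factors, planar polarity and target genes. In Fezf2-/- against wild type 1 was higher and 1 lower, or 2.78% against 0.858% of all genes. Tle4, a Groucho co-repressor of TCF/LEF factors, stood at 2861, 2642 and 2755 in wild type, at 978, 977, 820 and 990 in Fezf2-/-, and at 2806 and 3664 in the transgenic libraries. The 4 Fezf2-/- values lay below all others (log2 -1.55, SE 0.10, adjusted p = 1.27e-05), and Tle4 was also the only call of the list between the transgenic group and Fezf2-/- (log2 1.77, SE 0.11, adjusted p = 2.35e-05). By immunostaining the study had reported less TLE4 in Fezf2-/- cortex and its return with the transgene. The direction of Tle4 here, and its part in the share of calls, was therefore known beforehand.

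Gpc4, a glypican on the cell surface that binds secreted ligands, stood at 297, 240 and 208 in wild type, at 341, 393, 426 and 404 in Fezf2-/-, and at 270 and 288 in the transgenic libraries. The Fezf2-/- values lay above all others (log2 0.67, SE 0.12, adjusted p = 0.0367). The call was lost without bc202, bc203, bc205, bc206 or bc207, at adjusted p of 0.0927 to 0.184. Between the transgenic group and wild type limma called 0 of the 72, edgeR called 2 and DESeq2 called 7, where edgeR called 210 and DESeq2 966 of all 16197 genes. At an unadjusted limma p under 0.05 there were 14 (19.4%), close to the 19.3% of all genes. The median log2 fold changes of the list were 0.04, 0.05 and 0.01 in the 3 comparisons.

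For 29 members, RefSeq promoter windows of the GRCm38.p6 build were searched over the 250 bases before the start for CTTTGA, the core that TCF/LEF factors bind, on both strands (TCAAAG when read in reverse). It was present in 5 of 37 member windows (13.5%), against 13.8% of all 32817 windows. The windows of Fzd1, a receptor with a match, and of Axin2, a common target gene with no match in this stretch, are given 5′ to 3′ on the gene's strand, with the match in capitals. They are chr5:4758217-4758466 (minus strand) and chr11:108920099-108920348 (plus strand).
Fzd1: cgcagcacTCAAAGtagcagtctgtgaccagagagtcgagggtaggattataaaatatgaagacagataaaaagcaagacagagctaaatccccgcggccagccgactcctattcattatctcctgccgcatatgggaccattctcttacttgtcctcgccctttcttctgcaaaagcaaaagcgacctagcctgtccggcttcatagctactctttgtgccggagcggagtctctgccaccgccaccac
Axin2: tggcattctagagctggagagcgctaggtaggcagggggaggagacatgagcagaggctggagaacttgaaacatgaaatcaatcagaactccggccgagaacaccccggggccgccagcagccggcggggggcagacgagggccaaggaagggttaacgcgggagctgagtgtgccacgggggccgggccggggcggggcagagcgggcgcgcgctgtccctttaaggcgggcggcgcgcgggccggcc
Neither match nor absence in such a window says anything of binding. Both genes lay above 0 in fold change and were not called in Fezf2-/- (log2 0.50 and 0.24).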

How the data were processed

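Poly(A) RNA libraries were made from P0 cortices. The authors counted reads per gene and divided by a size factor before they deposited the table, so its values are a normalized signal, not a raw count. The submitters' notes name Bowtie, STAR, DESeq and mm10. The annotation, the counting tool and its use of strand are not given in the sources used here, so the 10 members whose exons overlap a gene on the other strand are uncertain. All 45 members matched GENCODE M21 (GRCm38).

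log2(value + 1) was tested with limma 3.58.1 (eBayes with trend, R 4.3.3) over 16197 genes with a mean of at least 10, all 9 libraries in 1 fit. The deposited values of 7 libraries gave whole reads (100% of values within 0.006), tested with edgeR 4.0.16 and DESeq2 1.42.0. In bc204 and bc208 1 read is worth about 1 (1.0043 and 0.99561), too close to tell reads from values, and the count tests omit them. These count tests hold 1 transgenic library, taken to vary like the others. The test was tested on simulated data. Alternatives were other pseudocounts (0.1, 10), filters, scalings, litter and libraries. The members and lists were chosen with earlier results of these data known. The genes named are all members, and of the pathway list those called. Replicates are separate mice.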

Additional observations from a re-analysis of the deposited data

Results flagged for a closer look

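Among 39 genes examined in the 4 Fezf2-/- libraries, 2 had 1 library apart from the other 3 by Dixon's test, which chance gives in about 1 of 20 such groups. Fzd8 stood at 296.4 in bc205, a gap of 0.902 of the group's range. Tle4 stood at 820.5 in bc206, a gap of 0.925 of the range.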

How the results depend on the processing

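Over 35 gene and comparison pairs with an unadjusted p under 0.05, 717 values under alternatives held 0 reversals. Of these values, 37 lost and 16 gained a call. The pairs were picked by p in these same libraries, so the kept directions are no separate support. Only pairs called in the main fit could lose a call, so 37 is not a share of all 717. TMM and median-ratio rescaling moved the median log2 fold change by 0.003 or less. No paired analysis was possible because replicate numbers are not shared between groups, and litter was used as a block instead. The filter at a mean of at least 50 removes Fzd10, whose mean was 29.0, before any test, so it could not be called there. Members called in Fezf2-/- against wild type numbered 3, and 1 with a mean of at least 50, 1 with edgeR, 10 unadjusted, 1 without the 2 libraries high in striatal markers (chosen after seeing the data) and 1 to 3 leaving out 1 library. Against wild type the transgenic group had 0, and 1 with litter as a block, 3 with DESeq2, 12 unadjusted and 0 to 2 leaving out 1. Against Fezf2-/- it had 1, and 0 with a mean of at least 50, with only the 2 groups compared, with litter as a block, within litter m3 or with edgeR, 5 with DESeq2, 9 unadjusted, 3 without the 2 libraries and 0 to 4 leaving out 1. The pathway list had 2 calls in Fezf2-/- against wild type, and 1 with edgeR, 4 with DESeq2, 12 unadjusted, 1 without the 2 libraries and 1 to 2 leaving out 1. For the transgenic group against wild type it had 0, and 2 with edgeR, 7 with DESeq2, 14 unadjusted, 2 without the 2 libraries and 0 to 2 leaving out 1. Against Fezf2-/- it had 1, and 5 with edgeR, 9 with DESeq2, 18 unadjusted, 7 without the 2 libraries and 1 to 10 leaving out 1. Over all genes, in Fezf2-/- against wild type, calls numbered 139, and 130 with edgeR, 322 with DESeq2 and 129 without the 2 libraries. For the transgenic group against wild type they numbered 19, and 210, 966 and 276. Against Fezf2-/- they numbered 124, and 654, 1101 and 809. They also went from 124 to 1088 without bc208 and to 21 without bc209 (transgenic against Fezf2-/-), and from 19 to 491 and 8 against wild type. The cause was not tested. With 2 transgenic mice, the error of that group was estimated mainly from the 7 other libraries. Fits without bc208 or bc209, without the 2 libraries, within litter m3 and with edgeR or DESeq2 held only 1 transgenic library. Calls of the transgenic group in those fits rest on the spread of other groups alone.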
